A study of Mus musculus with 36 samples.

Results

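Trib3 and 9 other genes of the ATF4 stress response were followed in the liver of each mouse of the series. They were taken by gene name from the deposited count table, which holds 38283 genes, and all 10 were found, passed the filter on low counts and were among the 13945 genes tested. Livers came from 36 male C57Bl/6J mice aged 16 weeks, 6 in each of 6 groups. Wild-type mice and mice heterozygous for the Pik3r1 Y657* knock-in allele, labelled WT/Y657*, were sampled in the fed state with free access to chow, after a fast of 16 h, or after 6 h of refeeding with chow that followed the same fast. The allele ends p85α, the regulatory subunit of phosphoinositide 3-kinase, short of its end. It is carried in the germline, so the liver is not the only tissue affected. No drug or second allele was given to any group. By the paper, fed livers were collected before the overnight fast, and the others at its end or after refeeding. Feeding state and time of collection therefore cannot be told apart. Single mice are named by the labels' genotype code (WT, or MT for WT/Y657*) and number, and the plots give the number alone. The question was how far an insulin-resistant genotype and the feeding state move these genes.

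The integrated stress response starts with kinases that sense amino acid shortage, endoplasmic reticulum stress, viral RNA or haem deficiency and phosphorylate the translation initiation factor eIF2α. General translation then falls while the mRNA of ATF4 is translated more, and ATF4 binds DNA as a dimer with C/EBP partners at amino acid response elements in front of its target genes. In the liver the arm is known for its link to protein and amino acid supply, and its target Trib3 has been studied as a brake on insulin signalling through Akt.

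Counts per mouse ranged from 8839488 to 19542775, with a median of 13596665.5. Levels are given as CPM (a gene's counts relative to the library's total, scaled by TMM), and a gene is described as called where the adjusted p of edgeR's quasi-likelihood test was under 0.05. The hepatocyte markers matched the tissue: 8 genes including Alb and Apob, none of them at 0, summed to between 58702 and 101196 CPM in every mouse. Pik3r1 lay between 74.5 and 182 CPM and was not called between genotypes in any of the 3 states (adjusted p between 0.423 and 0.886), but both alleles are summed, so its level does not check the genotype labels. In whole liver, fewer cells of a type and less RNA per cell cannot be told apart. Within genes counted per length, the order by the median over 36 mice was Atf5 (86.8 CPM per kb of exon), Atf4 (35.7), Cebpb (16.1), Cebpg (13.4), Ppp1r15a (3.47), Ddit3 (3.34), Trib3 (2.37), Asns (1.47), Atf3 (0.876) and Chac1 (0.606). The spread over mice did not follow this order. Asns, which makes asparagine from aspartate and glutamine, was 203 times higher in its highest mouse than in its lowest, and its lowest value rested on 3 counts. Chac1 spanned 35.4 times, Atf3 15.7, Trib3 10.9, Atf5 7.48 and Ddit3 7.35, whereas Ppp1r15a spanned 3.24, Atf4 2.55, Cebpb 2.48 and Cebpg 1.94.

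Of the genes, 6 encode transcription factors of the basic leucine zipper family. These are Atf4 itself (chr15:80255184-80257541, GRCm38), Atf3 (chr1:191170296-191218039), Atf5 (chr7:44812256-44816658), Ddit3, which encodes the pro-apoptotic factor CHOP (chr10:127290774-127296288), and the C/EBP partners Cebpb (chr2:167688915-167690418) and Cebpg (chr7:35046422-35056573). The other four encode effectors. Trib3 (chr2:152337422-152344032) is a pseudokinase, Asns (chr6:7675169-7693254) the asparagine synthetase, Chac1 (chr2:119351229-119354381) a glutathione-degrading enzyme, and Ppp1r15a (chr7:45522916-45526268) the GADD34 subunit that returns eIF2α to its unphosphorylated form. Exons of a gene on the opposite strand overlap those of Ddit3 (Mars), Atf5 (Il4i1), Ppp1r15a (Tulp2) and Cebpb (Tmem189). Other annotated genes also overlap exons of Cebpg (1 on the opposite and 1 on the same strand), Ddit3 (same strand) and Atf5 (opposite strand), and Gm4189 those of Ddit3. How the counting treated strand is not given in the sources used here. Mars stayed between 52.1 and 76.0 CPM over all mice while Ddit3 went from 4.12 to 30.2.

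The sequences of Trib3, Asns, Chac1 and Atf3 below are shown because they hold letters an ATF4 and C/EBP dimer is known to bind. That of Ppp1r15a is shown for a different element. Promoters from 250 bases before to 50 bases after the start were taken from RefSeq (GRCm38.p6), where all 10 genes were matched, and searched on both strands for TGATGNAA, which 3.97% of 32851 promoters hold, and for TGACGTCA, the cAMP response element, which 1.79% hold. The first was found in 4 of the 10 genes and the second in 1, in a different gene. Each line gives 30 bases of the gene's own strand, 5′ to 3′, with the match in capitals.
Trib3: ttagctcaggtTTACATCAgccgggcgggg
Asns: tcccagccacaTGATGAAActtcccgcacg
Chac1: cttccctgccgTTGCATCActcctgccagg
Atf3: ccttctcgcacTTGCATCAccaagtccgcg
Ppp1r15a: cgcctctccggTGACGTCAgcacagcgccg
The Trib3 match (chr2:152344028-152344057, minus strand) begins 14 bases downstream of the RefSeq start. The Asns match (chr6:7693214-7693243, minus) begins 23 bases upstream, the Chac1 match (chr2:119351038-119351067, plus) 193 bases upstream, and the Atf3 match (chr1:191183425-191183454, minus) 110 bases upstream. In Ppp1r15a (chr7:45526262-45526291, minus) it begins 12 bases upstream. Distances are from the RefSeq start, which is not always the end of the GENCODE locus given above: by those loci the Trib3 match lies just outside the gene, and the Asns and Atf3 matches lie within it. A match is a description of the letters and not evidence of binding.

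**Figure D1:**
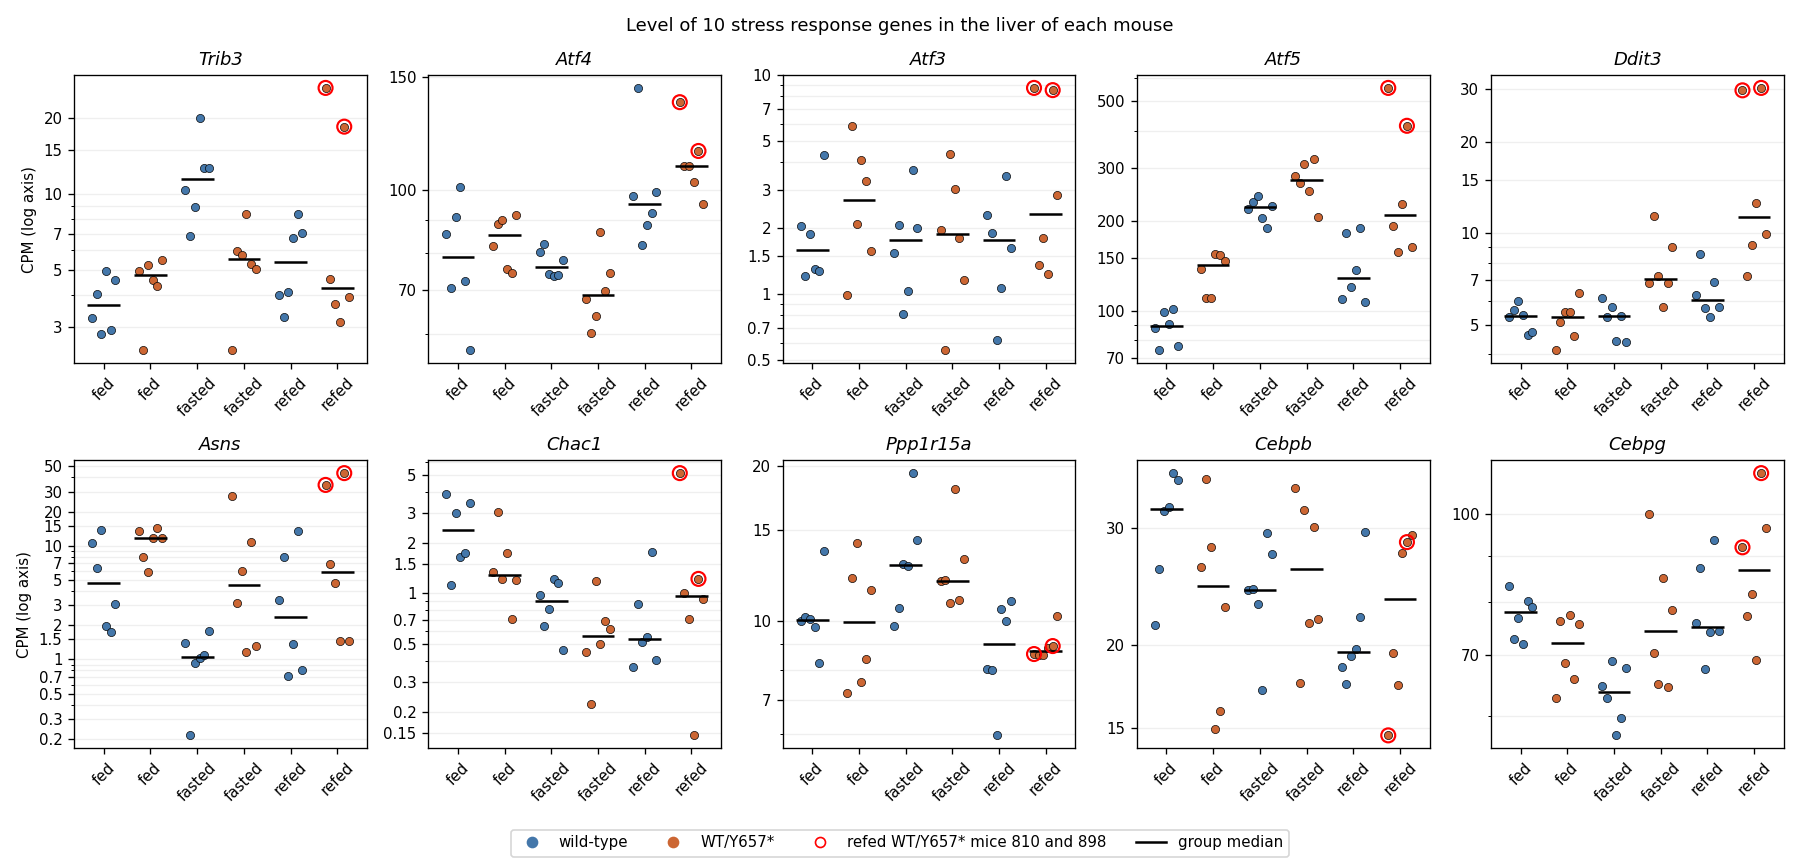
Level of each of the 10 genes in CPM on a log axis, by feeding state, with wild-type mice in blue, WT/Y657* mice in orange and a bar at each group's median (6 mice per group). Red rings mark refed WT/Y657* mice MT_810 and MT_898, which hold the highest Trib3 (26.4 and 18.5 CPM), Ddit3, Atf5, Atf3 and Asns of their group.

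In the fed state none of the 10 genes was called between genotypes by edgeR, against 2.37% of all genes tested, and 1 of them had an unadjusted p under 0.05. DESeq2 and the likelihood ratio test also called none. That gene was Atf5, whose mRNA, like that of Atf4, is translated more under stress. In fed wild-type mice it ranged from 74.2 to 102 CPM with a median of 89.3. In fed WT/Y657* mice it ranged from 111 to 156 with a median of 142. All 6 WT/Y657* mice lay above all 6 wild-type mice, and the log2 fold change was 0.62 (standard error 0.22, adjusted p = 0.12). Among the fed mice with neighbouring numbers that held mice of each genotype (3 WT/Y657* and 2 wild-type), the mean difference was 0.43 on the log2 scale. The remaining fed mice lie in blocks of neighbouring numbers that hold only wild-type or only WT/Y657* mice. For them number and genotype cannot be told apart, which limits every comparison of fed genotypes. A fit to the 2 fed groups alone called Atf5 (adjusted p = 0.035). The same fit with blocks of neighbouring numbers as a covariate did not. The 7 Kupffer cell and macrophage markers summed to a median of 495 CPM in fed WT/Y657* mice (221 to 781) and 275 in fed wild-type mice (233 to 328), and the hepatocyte markers to 75787 and 87789, and their part in the result was not tested. Trib3 ranged from 2.81 to 4.98 CPM in fed wild-type and from 2.42 to 5.48 in fed WT/Y657* mice, so the groups overlapped, and the 95% interval of the log2 difference ran from -0.59 to 1.12. The median log2 fold change was 0.03 over the 10 genes and 0.01 over all genes tested.

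Fasted WT/Y657* liver held more Asns and slightly more Cebpg mRNA than fasted wild-type liver. By edgeR 2 of the 10 genes were called, both higher, where 13.1% of all genes tested were called. Asns ranged from 0.215 to 1.77 CPM with a median of 1.06 in fasted wild-type mice, and from 1.17 to 27.3 with a median of 4.54 in fasted WT/Y657* mice. The groups overlapped, since WT/Y657* mice MT_921 and MT_923 stood at 1.17 and 1.31, and the log2 fold change was 2.95 (standard error 0.96, adjusted p = 0.0396). It rested on few counts in wild-type mice, between 3 and 23, and without mouse MT_806, the highest, it was 2.05 with an adjusted p of 0.20. The call was lost in 8 of the 12 fits that left out 1 of these mice. Mouse MT_806 also had the largest summed neutrophil markers of its group (7.86 CPM over 5 genes, 1 of them at 0 in this group, against 2.43 to 4.14 in the other 5 mice), whose part in the result was not tested.

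Cebpg, a C/EBP protein that pairs with ATF4, ranged from 57.1 to 69.0 CPM in fasted wild-type mice with a median of 63.8, and from 64.5 to 100.2 in fasted WT/Y657* mice with a median of 74.4. Its log2 difference, 0.28 (standard error 0.10, adjusted p = 0.0488), lay close to the threshold and passed it no longer with DESeq2 (0.051), the likelihood ratio test (0.055), the series of mouse numbers as a covariate (0.051) or without mouse MT_806 (0.21), and it was lost in 8 of the 12 fits that left out 1 mouse. Mice fall into a lower and a higher series of numbers in the labels, 3 of each genotype in each. Within the series the mean log2 difference was 3.27 and 0.97 for Asns and 0.24 and 0.30 for Cebpg.

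Trib3 lay the other way. It ranged from 6.87 to 20.2 CPM with a median of 11.5 in fasted wild-type mice and from 2.42 to 8.37 with a median of 5.53 in fasted WT/Y657* mice. The ranges overlapped over all 12 mice but not within either series of numbers, as the plot of Trib3 by series shows. In the lower series wild-type mice stood at 6.87, 8.96 and 10.4 CPM and WT/Y657* mice at 2.42, 5.75 and 5.99. In the higher series the values were 12.7, 12.7 and 20.2 against 5.09, 5.30 and 8.37. The log2 fold change was -1.13 (standard error 0.41, adjusted p = 0.0663), which did not pass in edgeR's quasi-likelihood test, while DESeq2 gave an adjusted p of 0.044, the likelihood ratio test 0.046 and a fit to the fasted groups alone 0.023. Trib3 also stayed uncalled with the series of mouse numbers as a covariate and with DESeq2's size factors. The same held with library size alone, without a filter and with at least 10 counts in every library. Ddit3 ranged from 4.38 to 6.10 CPM in fasted wild-type and from 5.69 to 11.4 in fasted WT/Y657* mice, which differed by 0.58 on the log2 scale (standard error 0.26, adjusted p = 0.13). Its genotypes, too, did not overlap within either series. Atf4, Atf5 and Asns separated by genotype in the lower series only. How many of all genes tested separate within the series was not counted, so this is a description. The other 6 genes had log2 fold changes between -0.47 and 0.32 and were not called. The fit to the fasted groups alone also called Ddit3 (0.024) and Atf5 (0.033).

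**Figure D2:**
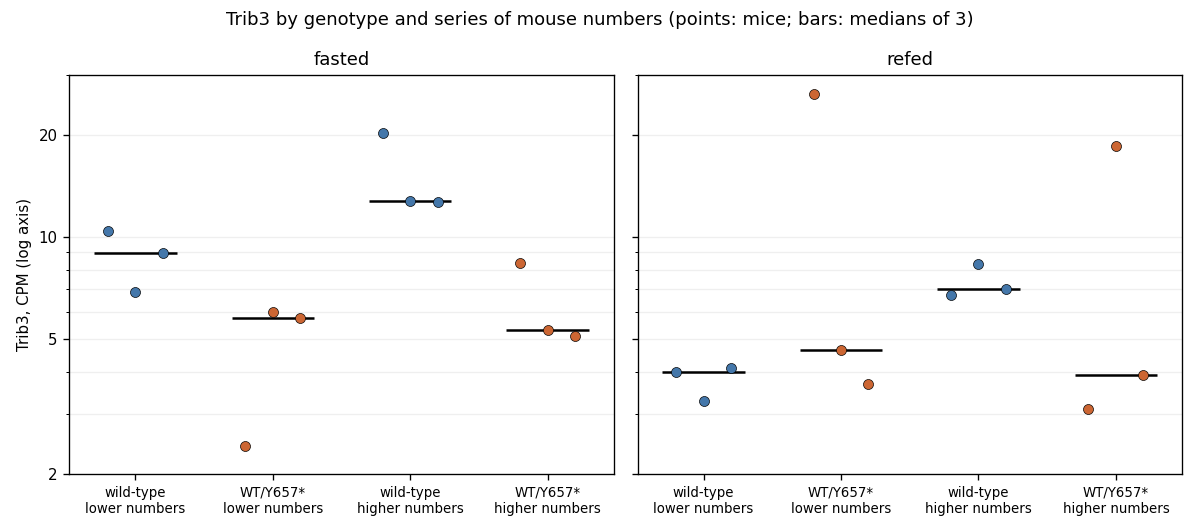
Trib3 in CPM on a log axis in fasted (left) and refed (right) mice, split by genotype and by series of mouse numbers, with a point per mouse and a bar at the median of 3 mice. Fasted WT/Y657* mice lie below fasted wild-type mice within both series, and refed wild-type mice of the higher series (6.73 to 8.34 CPM) lie above those of the lower series (3.28 to 4.12).

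After refeeding, Ddit3 was the one gene of the 10 called between genotypes, where 0.0287% of all genes tested, 4 genes, were called. It ranged from 5.31 to 8.54 CPM with a median of 6.01 in refed wild-type mice and from 7.22 to 30.2 with a median of 11.3 in refed WT/Y657* mice. Of the 6 WT/Y657* mice, 5 lay above every wild-type mouse. The log2 fold change was 1.37 (standard error 0.24, adjusted p = 0.0171, edgeR), a level 2.58 times higher, and the mean difference was 0.89 in the lower and 1.37 in the higher series of numbers. The call was lost in 7 of the 12 fits that left out 1 of these mice, 5 of them wild-type (adjusted p up to 0.088). A fit to the refed groups alone gave the same fold change with an adjusted p of 0.30, and without mice MT_810 and MT_898 the log2 fold change was 0.61 (adjusted p = 0.73). Atf5 came next, with a range from 107 to 189 CPM in refed wild-type and from 158 to 555 in refed WT/Y657* mice. The difference, 1.01 on the log2 scale (standard error 0.22, adjusted p = 0.14), was called by DESeq2 (0.018) and by the likelihood ratio test (0.0099).

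Over the 10 genes the median log2 fold change by genotype in refed mice was 0.92, and 0.01 over all genes tested. The 10 genes were chosen with earlier results of these data known, so this contrast is a description. It also rested on mice MT_810 and MT_898, described below. Without them Trib3 (-0.56), Atf3 (-0.035), Asns (-0.35) and Chac1 (-0.13) fell below 0. Asns (1.73), Atf3 (1.15), Chac1 (1.01) and Trib3 (0.84) stood above 0 with adjusted p between 0.45 and 0.52. For Trib3 the mean log2 difference was 1.003 in the lower and -0.25 in the higher series of numbers, and for Chac1 1.303 and -0.26, so neither direction held within series. Atf4 (0.15), Cebpg (0.16), Cebpb (0.11) and Ppp1r15a (-0.01) stood near 0.

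**Figure D3:**
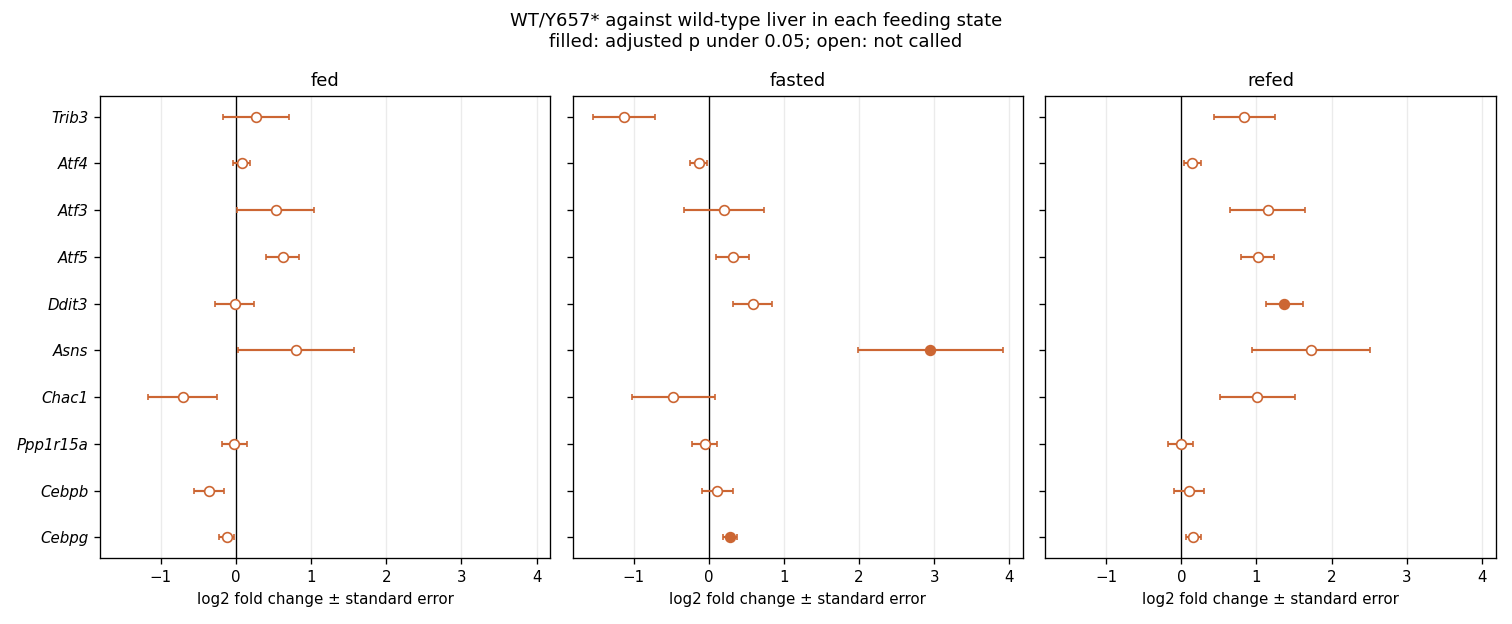
Log2 fold change of WT/Y657* against wild-type liver for each gene with its standard error, in fed, fasted and refed mice. Filled points were called (Asns and Cebpg in fasted mice, Ddit3 in refed mice) and open points were not.

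These refed values were uneven, and 2 of the 6 refed WT/Y657* mice carried most of them. Mice MT_810 and MT_898, which were singled out after their values were seen, stood at 26.4 and 18.5 CPM for Trib3, where the other 4 mice ranged from 3.12 to 4.65 and the refed wild-type mice from 3.28 to 8.34. For Asns they stood at 34.3 and 43.6 CPM against 1.45 to 6.93 in the other 4. For Ddit3 they stood at 29.7 and 30.2 against 7.22 to 12.6.

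Atf3, which encodes a stress-induced factor that ATF4 activates, showed the same order, with 8.74 and 8.54 CPM against 1.23 to 2.84. Atf5 stood at 555 and 415 CPM against 158 to 227. Chac1 was at 5.14 CPM in mouse MT_810 and at 1.22 in mouse MT_898, against 0.145 to 1.001 in the other 4. Atf4 itself was at 137 and 115 CPM against 95.4 to 109, a smaller margin, and refed wild-type mouse WT_816 was higher than both at 144. Ppp1r15a (8.61 and 8.92 CPM against 8.58 to 10.2) and Cebpb (14.6 and 28.6 against 17.4 to 29.3) did not follow.

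In 7 of the 10 genes these 2 mice were the highest of their group, which was so for 12.4% of all genes tested and for 28 of 61 other genes of the pathway (45.9%). Because the 2 mice were singled out by their values in such genes, these counts are a description and not a test. The other genes with wide margins were Fgf21, a hormone secreted by the liver on ATF4 and PPARα activation (58.2 and 19.4 CPM against 1.31 to 3.61), Gdf15, a stress hormone acting on the hindbrain (13.1 and 12.6 against 1.77 to 2.93), Psat1 of serine synthesis (4.62 and 8.02 against 0.387 to 1.31), the mitochondrial folate enzyme Mthfd2 (6.42 and 8.15 against 1.16 to 1.93), Nupr1 (2.57 and 3.53 against 0.357 to 0.775) and Ddit4, a brake on mTORC1 (25.6 and 8.86 against 1.997 to 3.62). These 6 were named after their values were seen. Of the 12 tRNA synthetases, the 2 mice were the highest of their group for Nars, Sars, Gars, Yars, Eprs, Iars and Cars. They were not for Wars, Mars, Aars, Lars and Tars. As examples chosen after the values were seen, Sars stood at 90.1 and 93.1 CPM against 53.3 to 62.5, whereas for Aars (314 and 355 against 272 to 333) MT_810 lay within the range of the other 4.

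**Figure D4:**
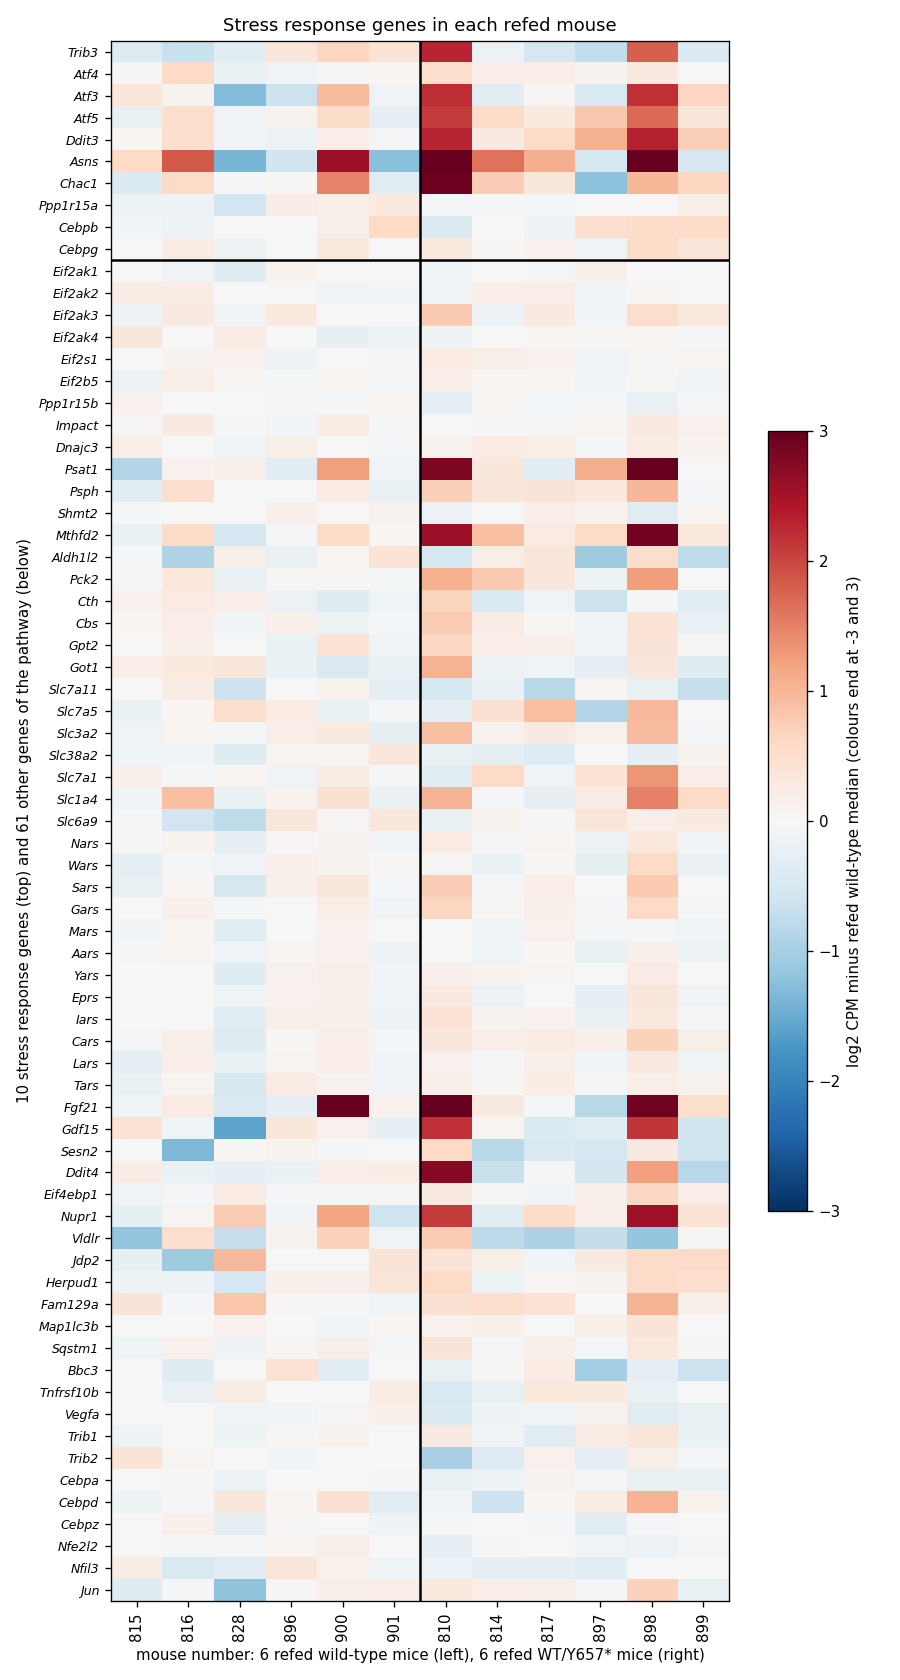
Log2 CPM of each gene in each refed mouse minus the median of the refed wild-type mice, with wild-type mice left and WT/Y657* mice right of the vertical line, the 10 genes above and 61 other genes of the pathway below the horizontal line. Columns MT_810 and MT_898 are red for Trib3, Atf3, Atf5, Ddit3, Asns, Psat1, Mthfd2, Fgf21 and Gdf15.

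Mice MT_810 and MT_898 belong to different series of numbers. In mouse MT_898 the 7 Kupffer cell and macrophage markers summed to 707.2 CPM and the 5 neutrophil markers to 28.3, against 249 to 416 and 0.998 to 3.28 in the other 5 refed WT/Y657* mice (neutrophil markers reached 20.2 in refed wild-type mice). Mouse MT_810 stood at 366 and 3.28, the latter the highest of these 5. Hepatocyte markers summed to 87840 CPM in mouse MT_810 and 72202 in mouse MT_898. The part of the inflammatory markers in mouse MT_898 was not tested. The refed wild-type mice were uneven too, with Asns at 8.02 and 13.4 CPM in mice WT_816 and WT_900 against 0.721 to 3.32 in the other 4, and Fgf21 at 22.7 in the highest.

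Fasting raised Trib3 and Atf5 in wild-type liver and lowered Asns, Chac1 and Cebpg. By edgeR 5 of the 10 genes were called, 2 higher and 3 lower, where 32% of all genes tested were called. Trib3 went from a median of 3.63 CPM in fed to 11.5 in fasted wild-type mice, with no overlap between the groups, and its log2 fold change was 1.66 (standard error 0.42, adjusted p = 0.00282), or 3.17 times. Atf5 went from 89.3 to 222 CPM, also without overlap (1.31, standard error 0.22, adjusted p = 2.67e-05). Asns went from a median of 4.72 CPM to 1.06 (-2.53, standard error 0.98, adjusted p = 0.0472) and Chac1 from 2.36 to 0.898 (-1.49, standard error 0.49, adjusted p = 0.0177). Cebpg went from 78.0 to 63.8 CPM, with every fasted mouse below every fed mouse (-0.29, standard error 0.10, adjusted p = 0.0223). Atf4 mRNA, at medians of 79.0 and 76.1 CPM, was not called, and the 95% interval of its log2 change ran from -0.27 to 0.18. The Asns call was lost in 9 of the 12 fits that left out 1 of the mice compared, with adjusted p up to 0.12.

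In WT/Y657* liver only Atf5 was called on fasting, where 32.9% of all genes tested were called. It went from a median of 142 CPM in fed to 275 in fasted mice without overlap (1.01, standard error 0.22, adjusted p = 0.00061). Trib3 stood at a median of 4.78 CPM in fed and 5.53 in fasted mice, with overlapping ranges from 2.42 to 5.48 and from 2.42 to 8.37. Its log2 change was 0.27, with a 95% interval from -0.57 to 1.10. Chac1 went from a median of 1.29 to 0.560 CPM (-1.25, standard error 0.52, adjusted p = 0.0613), and Ddit3 from 5.31 to 7.05 (0.58, standard error 0.25, adjusted p = 0.0731). DESeq2 and the likelihood ratio test called Chac1 as well, at 0.045 and 0.039.

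The difference between these fasting responses was tested itself, and no gene of the 10 passed by edgeR, where 4.35% of all genes tested did, while 2 had an unadjusted p under 0.05 and DESeq2 and the likelihood ratio test also called none. For Trib3 it was -1.40 on the log2 scale (standard error 0.60, adjusted p = 0.188, 95% interval from -2.57 to -0.22), and for Cebpg 0.41 (standard error 0.14, adjusted p = 0.0822). Fitted to the fed and fasted groups alone, the Trib3 difference had an adjusted p of 0.028. Fed mice carry other numbers than fasted and refed mice, so number and feeding state cannot be told apart in these comparisons.

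On refeeding, wild-type liver lowered Trib3, Atf5 and Ppp1r15a and raised Atf4 and Cebpg, 5 of the 10 genes by edgeR, where 30.2% of all genes tested were called. Trib3 went from a median of 11.5 CPM in fasted to 5.42 in refed wild-type mice (-1.08, standard error 0.41, adjusted p = 0.0418). Within the series the values fell from between 6.87 and 10.4 to between 3.28 and 4.12 in the lower numbers and from between 12.7 and 20.2 to between 6.73 and 8.34 in the higher. In the higher series every fasted mouse has a higher number than every refed mouse, so number and feeding state cannot be told apart there. Atf5 went from 222 to 129 CPM (-0.63, standard error 0.22, adjusted p = 0.0276), with the groups just apart, since the lowest fasted mouse stood at 189.3 and the highest refed mouse at 188.9. Ppp1r15a went from 12.9 to 9.02 CPM (-0.56, standard error 0.16, adjusted p = 0.00784). Atf4 went from 76.1 to 95.2 CPM (0.38, standard error 0.11, adjusted p = 0.00968), and without mouse WT_816, which stood at 144, its change was 0.26 (adjusted p = 0.064). Cebpg went from 63.8 to 75.2 CPM (0.31, standard error 0.10, adjusted p = 0.0132). The Trib3 call, too, was lost in 8 of the 12 fits that left out 1 of these mice (adjusted p up to 0.12), with its direction kept.

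In WT/Y657* liver refeeding raised Atf4 and Ddit3 and lowered Ppp1r15a, 3 of the 10 genes, where 31.3% of all genes tested were called. Atf4 went from a median of 68.8 CPM in fasted to 109 in refed mice, with no overlap (0.66, standard error 0.11, adjusted p = 2.59e-05), and Ppp1r15a from a median of 11.96 to 8.73, likewise without overlap (-0.52, standard error 0.16, adjusted p = 0.0144). Ddit3 went from 7.05 to 11.3 CPM (1.08, standard error 0.24, adjusted p = 0.000701). Trib3 had a median of 5.53 CPM in fasted and 4.28 in refed mice, yet a fitted log2 change of 0.89 (standard error 0.41, adjusted p = 0.10), since mice MT_810 and MT_898 lie far above the median. Without these 2 mice the Trib3 change was -0.50 (adjusted p = 0.20) and that of Ddit3 0.32 (adjusted p = 0.14), while Atf5 turned from 0.06 (adjusted p = 0.87) to -0.56 (adjusted p = 0.0044) and was then called lower. Atf4 was called with and without them (0.57 without).

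No gene of the 10 passed the test of the difference between the refeeding responses by edgeR, where 2.06% of all genes tested did, and 3 had an unadjusted p under 0.05. For Trib3 the difference had a 95% interval from 0.84 to 3.09 on the log2 scale (adjusted p = 0.0667). DESeq2 (0.028) and the likelihood ratio test (0.035) called it and no other of the 10. Without mice MT_810 and MT_898 it was 0.57 (adjusted p = 0.50).

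**Figure D5:**
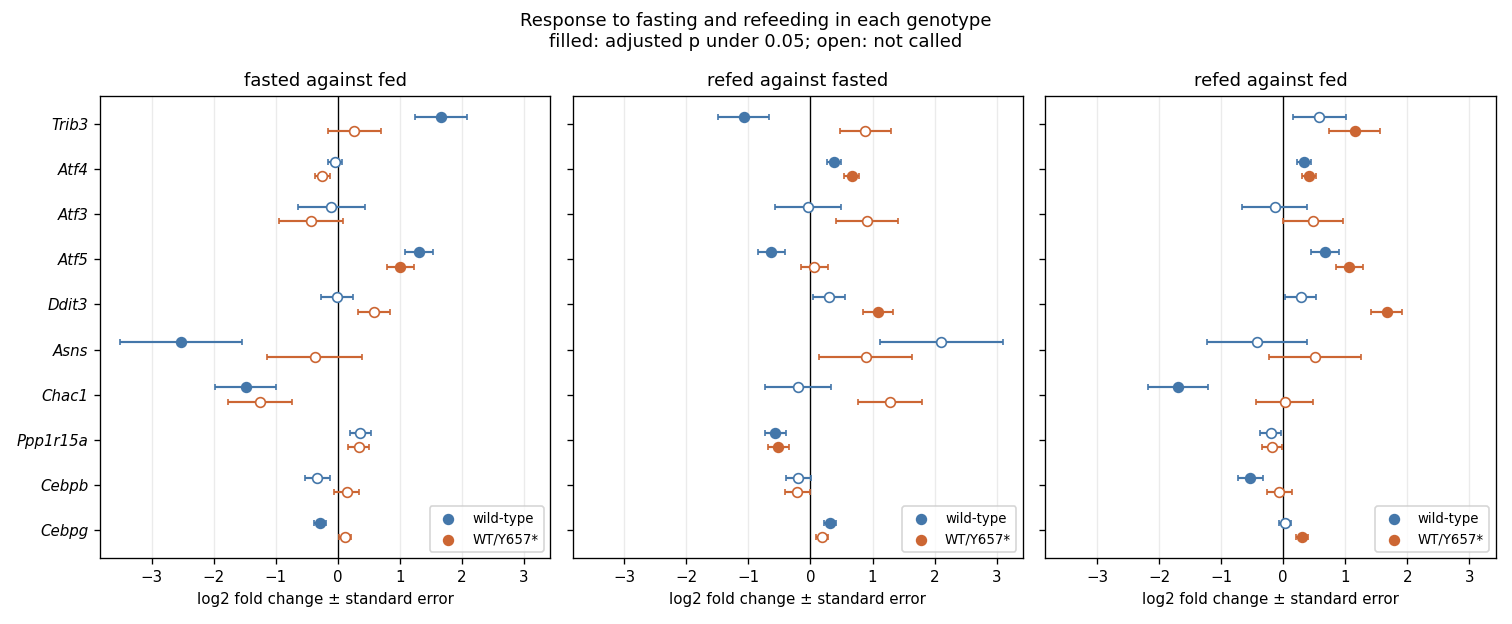
Log2 fold change with its standard error for fasted against fed, refed against fasted and refed against fed liver, in wild-type (blue) and WT/Y657* (orange) mice. Filled points were called. Trib3 was called on fasting and refeeding in wild-type mice and in neither of these in WT/Y657* mice, and the Atf5 rise on fasting was called in both genotypes. Tested itself by edgeR, the Trib3 difference between genotypes was not called for fasting (adjusted p = 0.188) or refeeding (0.0667).

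Refed liver was also set against fed liver, which places each gene's level after 6 h of chow beside its fed level. Mouse numbers and time of collection differ between these groups too. These comparisons share their refed mice with those above. In wild-type mice 4 of the 10 genes were called, where 27.5% of all genes tested were called. Atf5 stayed higher (0.67, standard error 0.22, adjusted p = 0.0213), with every refed mouse above every fed mouse, and Atf4 was higher (0.34, standard error 0.11, adjusted p = 0.0238). Chac1 was lower, at a median of 0.536 CPM against 2.36 (-1.69, standard error 0.49, adjusted p = 0.00849), and so was Cebpb, at 19.5 against 32.01 (-0.53, standard error 0.20, adjusted p = 0.0475). The Cebpb call was lost in 9 of the 12 fits that left out 1 of these mice (adjusted p up to 0.098). Trib3 was not called, with a 95% interval from -0.26 to 1.43.

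In WT/Y657* mice 5 of the 10 genes were called, all higher in refed than in fed liver, where 26.1% of all genes tested were called. They were Trib3 (1.15, standard error 0.41, adjusted p = 0.0357), Atf4 (0.41, standard error 0.11, adjusted p = 0.00665), Atf5 (1.07, standard error 0.22, adjusted p = 0.000506), Ddit3 (1.67, standard error 0.25, adjusted p = 4.67e-06) and Cebpg (0.31, standard error 0.10, adjusted p = 0.0173). The Trib3 call was lost in 6 of the 12 fits that left out 1 of these mice, 4 of them fed, and in a fit to the 2 groups alone (0.18). For Atf4, Atf5 and Ddit3 every refed mouse lay above every fed mouse, and how many of all genes tested separate in this way was not counted. Ddit3 was at 4.12 to 6.37 CPM in fed and at 7.22 to 30.2 in refed mice. Without mice MT_810 and MT_898 only Ddit3 (0.90) and Atf5 (0.44, adjusted p = 0.028) were called, and Trib3 stood at -0.25 (adjusted p = 0.57).

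A wider list of 65 further genes of the same response, of which 61 were tested, was described beside the 10. On fasting 28 of the 61 (45.9%) were called in wild-type liver, 12 higher and 16 lower, and 28 in WT/Y657* liver, 9 higher and 19 lower, where 32% and 32.9% of all genes tested were called. The tRNA synthetases, which charge tRNAs with amino acids and many of which ATF4 activates, moved together: 9 of 12 were lower on fasting in each genotype and none was higher. Yars and Nars fell in wild-type liver by 0.61 and 0.55 on the log2 scale (adjusted p = 1.41e-07 and 3.22e-07), and Tars and Aars fell in WT/Y657* liver by 0.89 and 0.58 (adjusted p = 5.66e-09 and 7.01e-07). On refeeding 23 of the 61 (37.7%) were called in wild-type liver, 12 higher and 11 lower, where 30.2% of all genes tested were called. In WT/Y657* liver 31 (50.8%) were called, 21 higher and 10 lower, against 31.3% of all genes tested. Of the 12 tRNA synthetases, 6 were higher and 1 lower in wild-type liver, and 9 were higher and 0 lower in WT/Y657* liver. Eif2s1, the eIF2α subunit itself, rose on refeeding in both genotypes (0.67 and 0.50, adjusted p = 5.31e-09 and 8.51e-07), while the autophagy gene Map1lc3b fell (-0.53 and -0.73). The median log2 fold change over the 61 genes was -0.12 on fasting in wild-type and -0.10 in WT/Y657* liver, and 0.01 and -0.01 over all genes tested.

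Between genotypes, 3 of the 61 were called in fed liver (4.92%, against 2.37% of all genes tested). For most fed mice number and genotype cannot be told apart, as given above. Dnajc3, an inhibitor of eIF2α kinases in the endoplasmic reticulum, was lower in WT/Y657* mice (-0.52, adjusted p = 0.00277), and Nfe2l2, the NRF2 factor that the kinase PERK can activate, was higher (0.41, adjusted p = 0.00427), as was Cbs of transsulphuration (0.50, adjusted p = 0.0464). In fasted liver 14 were called, 7 higher and 7 lower (22.95%, against 13.1% of all genes tested). The C/EBP gene Cebpd (1.23, adjusted p = 0.00081) and Map1lc3b (0.33, adjusted p = 0.00163) were higher, and the serine hydroxymethyltransferase Shmt2 (-0.49, adjusted p = 0.00182) was lower. In refed liver none of the 61 was called by edgeR, 11 had an unadjusted p under 0.05, DESeq2 called 1 and the likelihood ratio test 0. In edgeR Psat1 stood at 2.02 (adjusted p = 0.24), Mthfd2 at 1.69 (0.17) and Gdf15 at 1.09 (0.41). Against fed liver, 16 of the 61 were called in refed wild-type mice, among them Tars (-0.82), Vegfa (0.70) and Iars (-0.52), and 17 in refed WT/Y657* mice, among them Tars (-0.97), Eif2s1 (0.39) and Got1 (-1.74). These were 26.2% and 27.9% of the list, near the 27.5% and 26.1% of all genes tested.

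The genes whose level moved most like Trib3 from mouse to mouse were found by Pearson's r of log2 CPM after each group's mean was subtracted, over 36 mice and 12600 genes. They were Gadd45a (r = 0.69, Spearman's rho = 0.48), Arhgap12 (0.68, 0.55), Junb (0.66, 0.67), BC021614 (0.66, 0.53) and Nrbp1 (0.65, 0.60). The values share the libraries and their scaling and are given as a description. The 2 mice farthest from the median of Trib3 were MT_810 and MT_898, and without them r was 0.50 for Gadd45a, 0.50 for Arhgap12, 0.63 for Junb, 0.51 for BC021614 and 0.57 for Nrbp1. Among the other 9 genes of the response r was highest for Atf5 (0.57) and Ddit3 (0.53), and it was 0.24 and 0.17 over the remaining 34 mice, where Ppp1r15a had the highest r of the 9 (0.30, and 0.21 over all 36). For Atf4 mRNA r was 0.13, and -0.04 without those 2 mice.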

How the data were processed

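RNA of 36 livers was sequenced by the authors as stranded total RNA libraries with single reads. The authors deposited estimated counts per gene and mouse, without normalization (3.29% of those above 0 were not whole, at a tolerance of 1e-06), and these were rounded. Per the labels, Cuffdiff was used for alignment, FeatureCount for counting and edgeR for testing. The protocol text speaks of human genes, and the submitters' processing notes name the build mm9, whereas 99.7% of the loci of the genes matched by identifier overlap theirs in GENCODE M21 (GRCm38), which was used for positions and exon lengths. A second deposited table holds values fitted per condition and was not used. Groups were read from the labels, heterozygosity and sex from the paper. The mice are separate animals, and the counts of no pair within a group agreed within sampling noise.

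The analysis used edgeR 4.0.16 under R 4.3.3. Low genes were dropped with filterByExpr (6 groups), and libraries were scaled by TMM, and fitted by glmQLFit with robust dispersions over all 36 libraries, with 1 coefficient per group. Contrasts were tested two-sided by glmQLFTest, with Benjamini-Hochberg adjustment over 13945 genes and a threshold of 0.05. Intervals are 1.96 standard errors on either side. Log2 CPM used a prior count of 2. The common biological coefficient of variation was 0.181. The share of all genes tested whose groups do not overlap was not counted, so groups without overlap are a description throughout. The fit was tested on simulated counts.

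The 10 genes and the wider list were chosen with earlier results of these data known. Named beside the 10 were up to 3 called genes of the wider list with the smallest p per comparison, 5 genes most like Trib3 among genes with a mean of at least 1 CPM, and Pik3r1. Exceptions are marked where they occur. Alternatives were DESeq2 1.42.0, the likelihood ratio test, DESeq2's size factors, library size alone, no filter, at least 10 counts in every library, only the groups compared, the series of mouse numbers as a covariate and leaving out each mouse. For the fed genotypes, blocks of neighbouring mouse numbers were also used as a covariate. Leaving out mice 810 and 898 together was added after seeing the data. Depth limits Asns and Chac1 most, at 3 and 2 counts in their lowest library.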

Additional observations from a re-analysis of the deposited data

Results flagged for a closer look

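Of 60 sets of 6 mice (10 genes in 6 groups), 8 held a mouse whose distance to its nearest neighbour exceeded Dixon's 95% critical value as a share of the group's range. For normally distributed values chance gives about 1 in 20. The ratio was taken on CPM without logs, and each of the 8 was the highest mouse of its set, so that rate need not hold here. In WT/Y657* mice these were Chac1 in refed mouse MT_810 (5.14 CPM, next 1.22), Asns in fasted mouse MT_806 (27.3 CPM, next 10.9), Ppp1r15a in fasted mouse MT_921 (18.1 CPM, next 13.2) and Ppp1r15a in refed mouse MT_899 (10.2 CPM, next 8.92). In wild-type mice they were Atf4 in refed mouse WT_816 (144 CPM, next 99.5), Chac1 in refed mouse WT_900 (1.76 CPM, next 0.862), and Atf3 (4.31 CPM, next 2.04) and Ppp1r15a (13.7 CPM, next 10.2), both in fed mouse WT_860. Refed mice MT_810 and MT_898 are not in this list for Trib3, Ddit3, Atf5, Asns or Atf3, because they stand apart as a pair and each is the other's neighbour.

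By edgeR's test of the difference itself, 5 of the 61 genes of the wider list differed between genotypes in the fasting response. That was 8.20%, against 4.35% of all genes tested. In the refeeding response 1 of the 61 did (1.64%, against 2.06%). Given here are the 3 with the smallest p on fasting and the 1 on refeeding. The fasting differences include the fed mice, for most of which number and genotype cannot be told apart. Nfe2l2 had a log2 difference of -0.66 on fasting (adjusted p = 0.000657), with changes of 0.17 in wild-type and -0.50 in WT/Y657* liver. Dnajc3 had a difference of 0.70 (adjusted p = 0.00224), with changes of -0.87 and -0.17. For Sqstm1 the difference on fasting was -0.39 (adjusted p = 0.0273). Slc7a11, the cystine transporter, had a difference of -1.29 on refeeding (adjusted p = 0.0425), with changes of 0.53 in wild-type and -0.76 in WT/Y657* liver.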

How the results depend on the processing

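Counts of the 10 genes called changed by more than 1.5 times in these settings. DESeq2 and the likelihood ratio test each called 2 between refed genotypes (1 in edgeR's quasi-likelihood test), 2 on fasting in WT/Y657* mice (1) and 1 for the difference in the refeeding response (0). With only the groups compared in the fit, the counts were 1 between fed (0), 4 between fasted (2) and 0 between refed genotypes (1), 3 on fasting in WT/Y657* mice and 1 for the difference in the fasting response (0). Between fasted genotypes the count was 1 with DESeq2's size factors, 1 with at least 10 counts in every library, 1 with the series of mouse numbers as a covariate and 0 without a filter. Without a filter it was 3 on refeeding (5) and 2 in refed against fed liver (4) of wild-type mice, and with at least 10 counts, which removes Asns, Chac1 and Atf3 from the test, 3 on fasting in wild-type mice (5). Scaling by library size alone gave 3 on fasting in WT/Y657* mice, 3 on wild-type refeeding (5) and 5 on refeeding in WT/Y657* mice (3). The causes of these changes were not tested, other than by the genes or mice that a setting leaves out.

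Without refed WT/Y657* mice MT_810 and MT_898, 0 genes were called between refed genotypes and 2 in refed against fed WT/Y657* liver. The log2 difference between refed genotypes then turned to -0.56 for Trib3, -0.035 for Atf3, -0.35 for Asns and -0.13 for Chac1, the refeeding change in WT/Y657* mice to -0.50 for Trib3 and -0.56 for Atf5, and Trib3 in refed against fed WT/Y657* liver to -0.25. With each mouse left out in turn, the counts ranged from 0 to 2 between fasted and between refed genotypes, from 3 to 6 on wild-type fasting, from 3 to 5 on wild-type refeeding, from 1 to 2 on fasting and from 2 to 6 on refeeding in WT/Y657* mice, from 1 to 4 in refed against fed wild-type and 3 to 5 in WT/Y657* liver, and from 0 to 1 for the difference in the refeeding response. The Atf5 change on refeeding in WT/Y657* mice then ranged from -0.24 to 0.18. Atf4 in refed against fed wild-type liver was not called without mouse WT_816 (0.21, adjusted p = 0.14), nor Trib3 in refed against fed WT/Y657* liver without mouse MT_810 (0.59, adjusted p = 0.26) or MT_898 (0.89, adjusted p = 0.12), nor without any of 4 fed mice (adjusted p between 0.054 and 0.082) or without a filter (0.072). Cebpb in refed against fed wild-type liver was not called with library size alone (0.091) or without a filter (0.089), nor Asns between fasted genotypes without a filter (0.073).

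Library size alone moved the median log2 fold change of all genes by at most 0.10, but the share of called genes that were higher went from 51.2% to 88.9% between fed genotypes, 49.2% to 64.4% between fasted, 54.5% to 68.3% on wild-type refeeding, 54.7% to 73.1% on refeeding in WT/Y657* mice, 46.2% to 35.99% on their fasting, 75.0% to 100% between refed genotypes, 48.1% to 65.7% and 49.7% to 61.5% in refed against fed wild-type and WT/Y657* liver, and 59.5% to 34.2% and 28.9% to 39.8% for the differences in the fasting and refeeding responses. No paired analysis was possible because the groups share no mouse numbers.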
